A study of Homo sapiens with 12 samples.

Results

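The response to ibrutinib plus venetoclax was measured in Z-138 cells, an established mantle cell lymphoma line, that carried a control shRNA. The comparison used 6 of the 12 libraries of the study: 3 from cells given 3 µM ibrutinib and 3 µM venetoclax together, here called drug libraries, and 3 from cells given DMSO, the solvent. Libraries were chosen by their labels, and all 12602 genes that passed a filter on low counts were tested. All 4 groups of the study, these 2 included, were cultured with doxycycline, and the other 6 libraries came from cells with an shRNA against SMARCA4, with the same drugs or DMSO. The labels give neither the time on drug nor a single-drug arm, so the actions of ibrutinib and venetoclax cannot be told apart. They also do not say whether the 3 replicates of a group were separate cultures, so p-values here measure the spread between these libraries, which may be technical.

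Ibrutinib blocks BTK, a kinase that carries the signal of the B cell receptor towards ERK and NF-kB, and many mantle cell lymphomas rely on that receptor. Whether Z-138 cells do was not tested here. In B cells receptor signalling switches on immediate early genes such as EGR1 and FOS within minutes, and phosphatases and RGS proteins that dampen signalling follow. Venetoclax occupies the groove of BCL2, the survival protein that holds death-inducing relatives in check. As further background, SREBP transcription factors raise genes of sterol and fatty acid synthesis when membrane sterol runs low, and ATF4 raises genes of amino acid supply when the kinases of the integrated stress response are active.

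The 3 drug libraries held 7905971 to 8732642 counts and the 3 DMSO libraries 8307729 to 10151679. Counts came from a kit that reads the 3′ ends of transcripts. CPM values are each library's counts put on a common total, with scaling by the trimmed mean of M values. They are used here to compare 1 gene between libraries and not 2 genes with each other. The column of drug replicate 1 names the control shRNA and the replicate but no treatment, and it was placed in the drug group because no other column was left for that sample. Results that rest on it are given with and without it. The mantle cell lymphoma label was checked against its markers: cyclin D1 (CCND1), the gene driven by this lymphoma's translocation, stood at 4339, 4381 and 4651 CPM in the drug libraries, against 4889, 4444 and 4102 CPM in the DMSO libraries. The lymphoma factor SOX11 was also present, at 361, 371 and 375 CPM in the drug libraries, against 346, 341 and 321 CPM in the DMSO libraries, while CD5 and FCRL1 were not analysed here. Of 15 B cell markers, 13 were analysed, and their summed level was 1000 to 1040 CPM in the drug libraries and 965 to 999 CPM in the DMSO libraries. This sum and the marker levels that follow in this paragraph were scaled by library totals alone. Of 13 T and NK cell markers, 3 were analysed (16.8 to 21.0 CPM summed in the drug libraries and 17.9 to 19.6 CPM in the DMSO libraries). Of 10 monocyte markers, 1 was analysed, with at most 0.463 CPM in a drug library and 0.943 CPM in a DMSO library. Of 10 fibroblast and epithelial markers, 1 was analysed (COL1A1, which did not pass the test), with 24.6 to 25.5 CPM in the drug libraries and 19.5 to 23.3 CPM in the DMSO libraries.

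The drug response was small in extent. At an adjusted p of 0.05 in edgeR's quasi-likelihood test over all genes, 163 genes passed, which is 1.29% of those tested. Of them, 93 were higher with drug (0.738% of the genes tested) and 70 were lower (0.555%). A change of at least 2-fold was seen for 25 of the higher and 20 of the lower genes, so that 118 of the 163 changed by less. The median log2 fold change over all genes was 0.00172. For 162 of the 163 genes, all 3 drug libraries lay on the same side of all 3 DMSO libraries. Of all genes tested, 7.38% had the drug libraries wholly above and 7.18% wholly below the DMSO libraries. The test used these same libraries, so the separation of called genes is not separate support for them. Scaled by library totals alone, 159 genes passed, 74 higher and 85 lower, and the calls of CBS, SLC1A5, TARS, TNFAIP3, INSR, CALR, SDF2L1 and ACLY, all described below, ended. When drug replicate 1 was left out, 106 genes passed, 99 of the 163 among them. All 163 kept their sign, but for the 162 without overlap this was fixed in advance. The kept signs are therefore not separate support for the placing of that column.

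**Figure D1:**
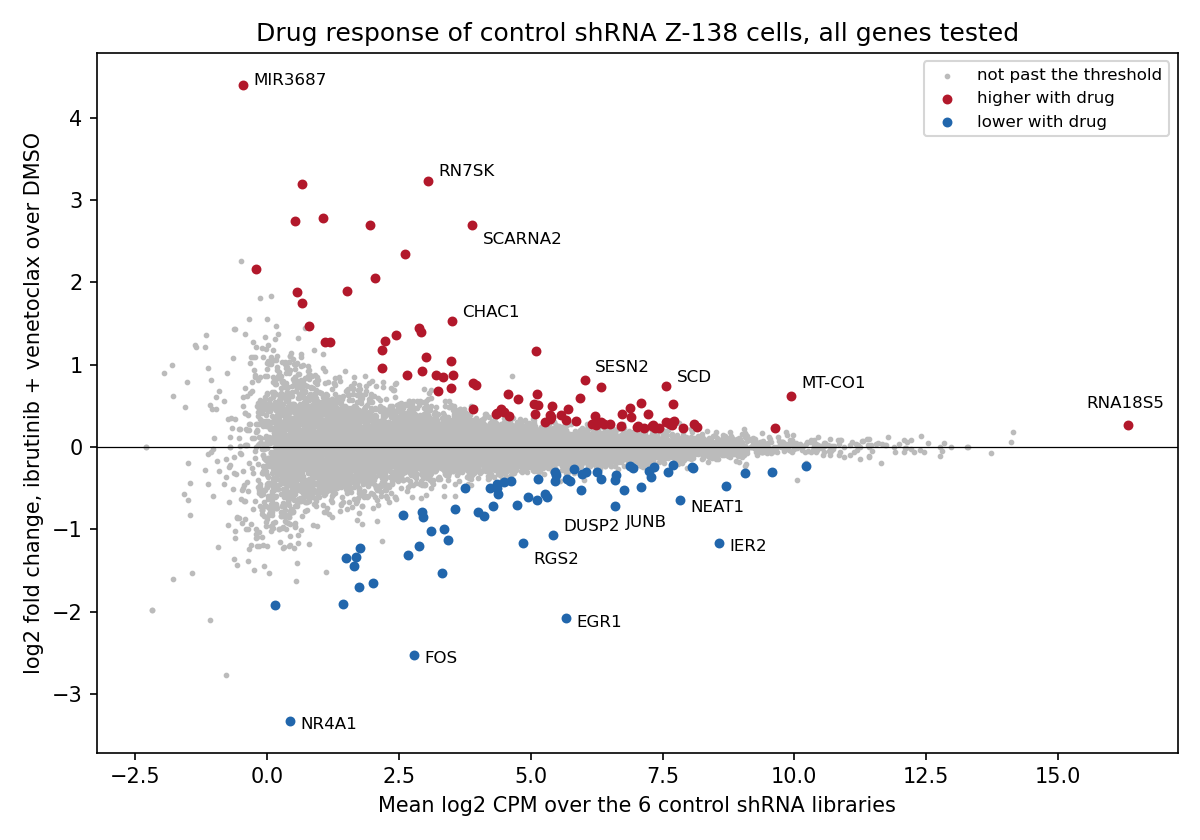
Each point is 1 of the 12602 genes tested in control shRNA cells. The x axis is the mean log2 CPM over the 6 control libraries and the y axis the log2 fold change, ibrutinib plus venetoclax over DMSO. Red points are the 93 genes higher and blue points the 70 genes lower past an adjusted p of 0.05, and most of them sit within 1 log2 unit of 0.

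Some enzymes of cholesterol synthesis rose. FDFT1, squalene synthase, which opens the branch to sterols, had 105, 99.97 and 105 CPM in the drug libraries, against 63.3, 55.7 and 68.8 CPM in the DMSO libraries. It rose by 0.72 log2 (SE 0.07, adjusted p = 1.93e-08), with the lowest drug library well above the highest DMSO library. DHCR7, a late reductase of cholesterol synthesis, had 13.2, 10.7 and 12.9 CPM in the drug libraries, against 7.5, 6.4 and 6.09 CPM in the DMSO libraries, and rose by 0.88 log2 (SE 0.15, adjusted p = 0.000443). Of 19 tested genes of cholesterol synthesis, 3 rose, FDFT1 and DHCR7 among them, 0 fell and 16 did not pass. The list's median log2 fold change was 0.133, and 17 of 19 were positive. HMGCS1, which makes HMG-CoA early in the pathway, had a change of 0.40 log2 (SE 0.11, adjusted p = 0.0923). LSS, which closes the sterol ring, had a change of 0.49 log2 (SE 0.14, adjusted p = 0.0977). Both genes had every drug library above every DMSO library without passing the test, a pattern that 7.38% of all genes tested showed in this direction.

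Among regulators of sterol supply, SREBF2, which encodes SREBP2, the main factor of sterol genes, had 144, 136 and 137 CPM in the drug libraries, against 99.1, 95.8 and 105 CPM in the DMSO libraries. It rose by 0.48 log2 (SE 0.06, adjusted p = 2.23e-06), with no overlap. INSIG1, a retention protein that holds SREBP in the endoplasmic reticulum and is itself an SREBP target, had 79.1, 77.8 and 78.7 CPM in the drug libraries, against 65.9, 63.3 and 64.9 CPM in the DMSO libraries, and rose by 0.28 log2 (SE 0.06, adjusted p = 0.0159). The INSIG1 call ended without drug replicate 1, 2 or 3 or DMSO replicate 2 or 3 (0.26 to 0.28, adjusted p = 0.0502 to 0.104). Of 11 genes of control and uptake tested, these 2 rose and 0 fell, at a median of 0.0953. SREBF1, the gene of the related factor of fatty acid synthesis, had a change of 0.33 log2 (SE 0.10, adjusted p = 0.108) and passed without DMSO replicate 3 (0.41, adjusted p = 0.0449). Of 6 sterol efflux genes under the control of LXR, 0 passed by edgeR, DESeq2 or limma-voom and 0 had an unadjusted p under 0.05, at a median of -0.0931.

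The window around the start of SREBF2 is shown because it holds a match to the sterol response element by which SREBP factors bind DNA. Windows of 300 bases, 250 before and 50 after the start, came from RefSeq (GRCh38.p14) for 8469 of the 12602 genes tested. The letters TCACNCCAC, searched on both strands, were in 1.19% of these windows, in 1 of 10 windows of the sterol control genes and in 0 of 14 of the synthesis genes. Capitals mark the match, on the plus strand from base -133 to base -125 relative to the start, in the window chr22:41832855-41833154 of GRCh38.p14, plus strand.
SREBF2: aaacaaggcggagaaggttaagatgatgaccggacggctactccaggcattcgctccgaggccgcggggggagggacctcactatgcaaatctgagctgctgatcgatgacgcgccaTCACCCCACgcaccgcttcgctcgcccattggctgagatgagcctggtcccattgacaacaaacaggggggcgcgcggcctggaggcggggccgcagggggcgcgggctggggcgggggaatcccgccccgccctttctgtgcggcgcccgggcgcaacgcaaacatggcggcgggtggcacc

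Some genes of fatty acid synthesis rose. SCD, the desaturase that makes oleic acid, had 264, 252 and 219 CPM in the drug libraries, against 141, 152 and 148 CPM in the DMSO libraries. The groups did not overlap, and the rise was 0.74 log2 (SE 0.07, adjusted p = 5.75e-09). FADS1, which makes arachidonic acid, had 37.2, 39.9 and 41.9 CPM in the drug libraries, against 27.1, 27.2 and 28.4 CPM in the DMSO libraries, and rose by 0.53 log2 (SE 0.09, adjusted p = 0.000679). FASN, the fatty acid synthase itself, had 288, 295 and 318 CPM in the drug libraries, against 253, 240.1 and 252 CPM in the DMSO libraries, and rose by 0.28 log2 (SE 0.05, adjusted p = 0.00149), a small change with every drug library above every DMSO library. FADS2, the desaturase before FADS1, had 15.2, 12.7 and 14.6 CPM in the drug libraries, against 8.6, 8.57 and 8.71 CPM in the DMSO libraries, and rose by 0.71 log2 (SE 0.18, adjusted p = 0.0342). That call ended without drug replicate 1, 2 or 3 or DMSO replicate 1, 2 or 3 (0.66 to 0.79, adjusted p = 0.0504 to 0.192). ACLY, which supplies acetyl-CoA and was named after its value was seen, rose by 0.22 log2 (SE 0.06, adjusted p = 0.0375), and the call ended without drug replicate 1 or 3 or DMSO replicate 1, 2 or 3 (0.19 to 0.24, adjusted p = 0.0743 to 0.265). These 5 of 15 tested genes rose, 0 fell, and the median was 0.178. The count was 4 without drug replicate 2 and 3 without any other single library, the unlabelled drug replicate 1 included. ACACA, the carboxylase that commits carbon to fatty acids, had a change of 0.13 log2 (SE 0.09) and overlapping libraries.

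Some known targets of ATF4 rose. CHAC1, a cytosolic enzyme that cleaves glutathione, had 19.5, 18.9 and 18.5 CPM in the drug libraries, against 6, 7.73 and 5.97 CPM in the DMSO libraries. All drug libraries lay far above the DMSO libraries, and the rise was 1.53 log2 (SE 0.14, adjusted p = 1.19e-08). SESN2, sestrin 2, which restrains mTORC1 and senses leucine, had 85, 88.3 and 84.7 CPM in the drug libraries, against 48.7, 49.2 and 48.8 CPM in the DMSO libraries. It rose by 0.81 log2 (SE 0.07, adjusted p = 4.99e-09). The libraries of each SESN2 group lay close together, and the groups were far apart. The mRNA of ATF4 itself had 544, 545 and 617 CPM in the drug libraries, against 525, 489.9 and 507 CPM in the DMSO libraries, and its change of 0.16 log2 (SE 0.05, adjusted p = 0.174) did not pass, with no overlap. Of 18 stress regulators tested, SESN2 and CHAC1 rose and 0 fell, at a median of 0.175. Both calls held without each single library. DDIT4, an mTORC1 inhibitor, had a change of 1.83 log2 (SE 0.53, adjusted p = 0.0943) from at most 1.93 CPM. The eIF2 alpha kinase gene EIF2AK3 (PERK) had a change of 0.26 log2 (SE 0.09, adjusted p = 0.171). DDIT3, which encodes CHOP, had 5.94, 5.68 and 5.32 CPM in the drug libraries, against 4, 3.62 and 5.61 CPM in the DMSO libraries, and TRIB3, a pseudokinase that CHOP induces, had a change of 0.26 log2 (SE 0.12). Neither passed.

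INHBE, an activin subunit gene, and ADM2, the gene of a calcitonin-family peptide, are singled out after their values were seen, because both are known ATF4 targets in human cells. INHBE had 13.2, 10.8 and 12.3 CPM in the drug libraries, against 4, 6.52 and 3.34 CPM in the DMSO libraries, and rose by 1.40 log2 (SE 0.19, adjusted p = 1.13e-05). ADM2 had 9.56, 11.4 and 9.91 CPM in the drug libraries, against 5.6, 5.92 and 4.65 CPM in the DMSO libraries, and rose by 0.93 log2 (SE 0.18, adjusted p = 0.00212). In both genes every drug library lay above every DMSO library.

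The CHAC1 window is shown because it holds a match to the composite element that ATF4 binds with a C/EBP partner. The letters TGATGNAA, on either strand, were in 1.61% of all windows. They were in 3 of 16 windows of the stress regulators and in 3 of 12 of the amino acid and one-carbon genes. Among called members with a window, they were in 1 of 2 stress regulators, CHAC1 itself. They were in 0 of 3 called amino acid and one-carbon genes. Capitals mark the match, which reads on the minus strand and spans bases -209 to -202, in the window chr15:40953221-40953520 of GRCh38.p14, plus strand.
CHAC1: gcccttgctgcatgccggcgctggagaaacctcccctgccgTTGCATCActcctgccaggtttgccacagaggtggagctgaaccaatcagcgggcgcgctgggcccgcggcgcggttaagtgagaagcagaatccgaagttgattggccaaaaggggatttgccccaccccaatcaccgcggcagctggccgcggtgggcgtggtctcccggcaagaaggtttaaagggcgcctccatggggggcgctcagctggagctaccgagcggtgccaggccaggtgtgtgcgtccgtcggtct

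Some genes of amino acid and one-carbon synthesis rose. PSAT1, the aminotransferase of serine synthesis, had 31.6, 27.9 and 29.3 CPM in the drug libraries, against 19.7, 16.9 and 20.3 CPM in the DMSO libraries, and rose by 0.64 log2 (SE 0.10, adjusted p = 0.000104). GPT2, the mitochondrial alanine transaminase, had 167, 170.2 and 174 CPM in the drug libraries, against 127, 131 and 130.2 CPM in the DMSO libraries, and rose by 0.40 log2 (SE 0.06, adjusted p = 0.000189). In both genes the groups were clearly apart, and the calls held without each single library. MTHFD2, the mitochondrial folate enzyme of one-carbon supply, had 229, 213 and 217 CPM in the drug libraries, against 178, 172 and 195 CPM in the DMSO libraries, and rose by 0.28 log2 (SE 0.06, adjusted p = 0.00611). The MTHFD2 call ended without drug replicate 1 or DMSO replicate 2 (0.24, adjusted p = 0.0934 to 0.0968). CBS, which starts the transfer of sulfur from homocysteine to cysteine, rose by 0.40 log2 (SE 0.10, adjusted p = 0.0448), and the call ended without drug replicate 2 or 3 or DMSO replicate 1, 2 or 3 (0.33 to 0.43, adjusted p = 0.0688 to 0.248). It also ended with library totals, no filter, DESeq2, limma-voom and the 6 libraries alone. Of 15 genes of amino acid and one-carbon synthesis tested, these 4 rose and 0 fell, at a median of 0.161, and 2 rose without DMSO replicate 2. ASNS, asparagine synthetase, had 185, 200.4 and 208 CPM in the drug libraries, against 185, 166 and 167 CPM in the DMSO libraries, a change of 0.19 log2 (SE 0.06, adjusted p = 0.119).

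Among amino acid transporters, SLC7A11, the cystine importer, had 12.1, 16.8 and 11.5 CPM in the drug libraries, against 8.3, 7.37 and 6.56 CPM in the DMSO libraries. It rose by 0.85 log2 (SE 0.16, adjusted p = 0.00124), and drug replicate 2 was the highest library of all. SLC7A1, which imports arginine and lysine, had 134, 137 and 133 CPM in the drug libraries, against 99.1, 108 and 108 CPM in the DMSO libraries, and rose by 0.36 log2 (SE 0.06, adjusted p = 0.000303). SLC1A5, which imports glutamine and other neutral amino acids, rose by 0.27 log2 (SE 0.07, adjusted p = 0.0353), and that call ended without drug replicate 1 or 3 or DMSO replicate 1, 2 or 3 (0.22 to 0.28, adjusted p = 0.0872 to 0.204). These 3 of 14 tested transporters rose and 0 fell, at a median of 0.197. SLC43A1, a transporter of large neutral amino acids, had a change of 0.33 log2 (SE 0.09, adjusted p = 0.0586) and passed without drug replicate 3 (0.39, adjusted p = 0.0322). SLC7A5, a leucine importer, had a change of -0.07 log2 (SE 0.06) with overlapping libraries. Of 20 cytosolic tRNA synthetases, 1 rose and 0 fell, at a median of 0.0508: TARS, the threonine enzyme, at 0.23 log2 (SE 0.06, adjusted p = 0.0315). Its call ended without drug replicate 1 or 2 or DMSO replicate 1 or 2 (0.21 to 0.22, adjusted p = 0.137 to 0.203).

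Of 27 tested genes of the endoplasmic reticulum and its unfolded protein response, 6 rose, with a median log2 fold change of 0.219 and 23 positive values. XBP1, the factor that is spliced in the unfolded protein response and drives plasma cell secretion, had 52.6, 48.8 and 48.3 CPM in the drug libraries, against 36.7, 33.2 and 36.5 CPM in the DMSO libraries, and rose by 0.49 log2 (SE 0.08, adjusted p = 0.000187). HSPA5, the chaperone BiP, had 886, 845 and 851 CPM in the drug libraries, against 753, 712 and 739 CPM in the DMSO libraries, and rose by 0.23 log2 (SE 0.05, adjusted p = 0.00678). Both groups were apart in each of these 2 genes. MANF, a secreted partner of BiP, had 229, 199 and 229.7 CPM in the drug libraries, against 167, 179.6 and 190.3 CPM in the DMSO libraries, and rose by 0.29 log2 (SE 0.07, adjusted p = 0.0129). The disulfide isomerase gene PDIA4 had 229, 201 and 204 CPM in the drug libraries, against 167, 169 and 177 CPM in the DMSO libraries, and rose by 0.31 log2 (SE 0.07, adjusted p = 0.0184). SDF2L1, a cofactor of BiP, rose by 0.24 log2 (SE 0.06, adjusted p = 0.0315) and CALR, calreticulin, by 0.33 log2 (SE 0.09, adjusted p = 0.0416), both named after their values were seen. Thus 6 genes rose and 0 fell, but the count was sensitive to single libraries. It was 1 without drug replicate 1 or DMSO replicate 2, 2 without DMSO replicate 1 and 5 without any other. The XBP1 call held in all of these. The HSPA5 call ended without drug replicate 1 or DMSO replicate 2 (0.20, adjusted p = 0.0846 to 0.0973) and the MANF call without drug replicate 1 or 3 or DMSO replicate 1 or 2 (0.25 to 0.30, adjusted p = 0.0638 to 0.137). PDIA4 missed the threshold without drug replicate 1 or DMSO replicate 1 or 2 (0.24 to 0.30, adjusted p = 0.101 to 0.229), SDF2L1 without drug replicate 1 or 3 or DMSO replicate 1, 2 or 3 (0.19 to 0.26, adjusted p = 0.0644 to 0.204) and CALR without drug replicate 1, 2 or 3 or DMSO replicate 1 or 2 (0.31 to 0.36, adjusted p = 0.0643 to 0.204). XBP1 is also the 1 of 10 tested plasma cell markers that rose. Scaled by library totals alone, the marker sum was 838 to 849 CPM in the drug libraries and 779 to 798 CPM in the DMSO libraries. The sum was not tested for a difference. The B cell marker sum was also higher, at 1000 to 1040 CPM in the drug libraries and 965 to 999 CPM in the DMSO libraries. For XBP1 or the sum, more cells with a plasma cell programme and more such RNA per cell cannot be told apart in bulk RNA. ERN1, the kinase that splices XBP1, had a change of 0.19 log2 (SE 0.15), and HSP90B1, the second large chaperone, 0.14 log2 (SE 0.06), with overlapping libraries in both.

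**Figure D2:**
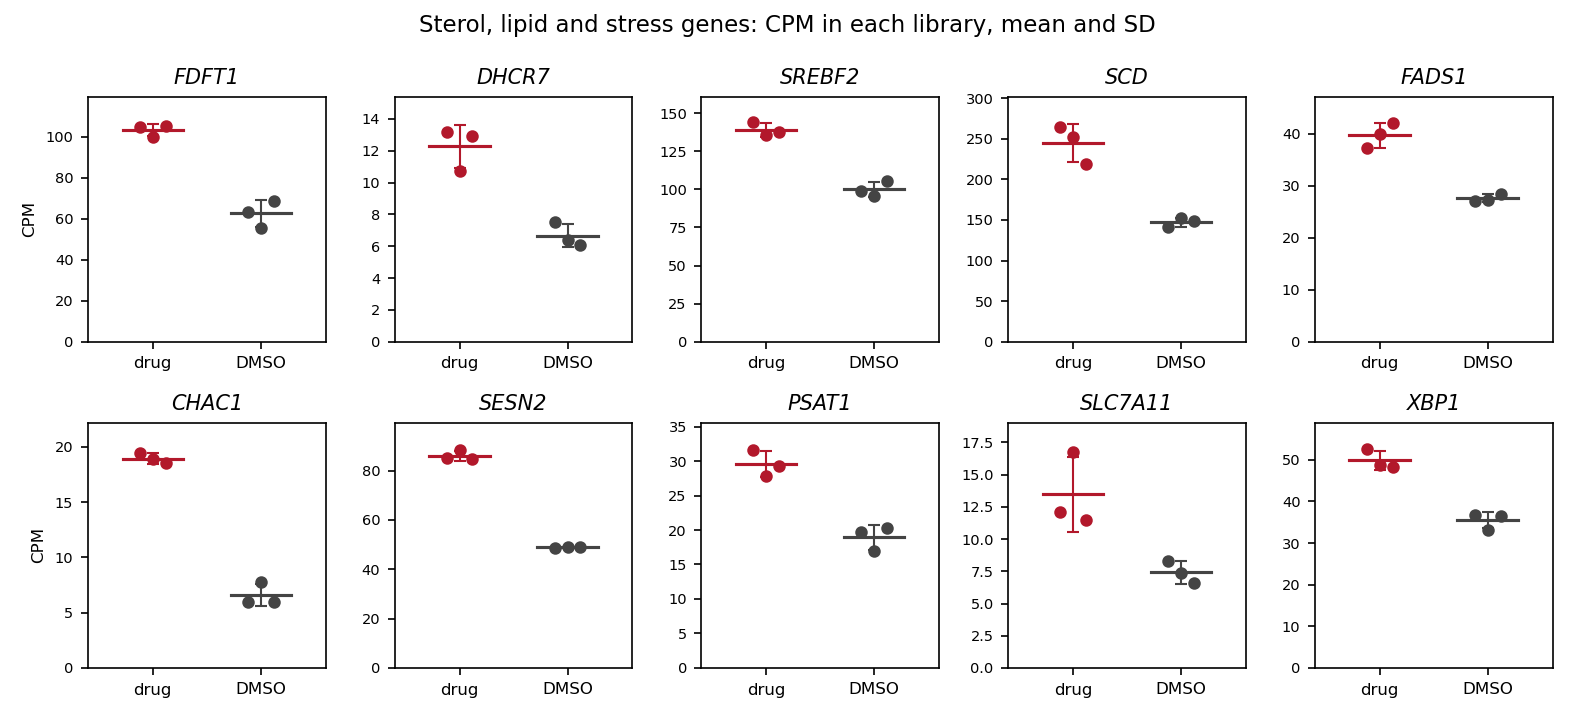
Levels of 10 genes of sterol and fatty acid synthesis, amino acid stress and the endoplasmic reticulum in control shRNA cells. Each point is 1 library in CPM, drug on the left in red and DMSO on the right in grey, with the mean and SD of 3. All 10 genes had 3 drug libraries above 3 DMSO libraries, and SLC7A11 had the widest spread among drug libraries for its level.

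Several immediate early genes fell. EGR1, a zinc finger factor induced by ERK, had 24.2, 35.3 and 18.6 CPM in the drug libraries, against 55.5, 126 and 150.4 CPM in the DMSO libraries. It fell by 2.08 log2 (SE 0.34, adjusted p = 0.000268), and DMSO replicate 1 lay well below the other DMSO libraries. FOS, which was named after its value was seen and encodes the partner of JUN in AP-1, had 2.21, 4.13 and 2.54 CPM in the drug libraries, against 8.1, 15.6 and 28 CPM in the DMSO libraries, and fell by 2.53 log2 (SE 0.48, adjusted p = 0.00151). Its call ended with limma-voom (-2.36, adjusted p = 0.127). IER2 had 258, 263 and 250.3 CPM in the drug libraries, against 397, 602 and 734 CPM in the DMSO libraries, and fell by 1.17 log2 (SE 0.19, adjusted p = 0.000187). JUNB, another AP-1 subunit, had 77.9, 77 and 72.6 CPM in the drug libraries, against 105, 123 and 148 CPM in the DMSO libraries, and fell by 0.72 log2 (SE 0.12, adjusted p = 0.000437). In each of these 4 genes DMSO replicate 1 was the lowest DMSO library and yet lay above all 3 drug libraries. NR4A1, an orphan nuclear receptor induced by antigen receptors and also named after its value was seen, was nearly absent with drug. It had 3, 0 and 6 counts in the drug libraries, against 28, 42 and 30 counts in the DMSO libraries, and fell by 3.33 log2 (SE 0.61, adjusted p = 0.00101), a size that rests on few counts.

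Of 20 immediate early genes tested, 8 fell, 0 rose and 12 did not pass, and the list's median log2 fold change was -0.661. In 12 of the 20 the drug libraries lay below all DMSO libraries, against 7.18% of all genes tested. The remaining called members were ZFP36L1, BTG2 and KLF6. ZFP36L1, which speeds the decay of AU-rich mRNAs, had 135, 137.7 and 135 CPM in the drug libraries, against 163, 174 and 190.3 CPM in the DMSO libraries, and fell by 0.37 log2 (SE 0.06, adjusted p = 0.000443). BTG2, an antiproliferative gene that p53 also induces, had 8.63, 8.91 and 9.31 CPM in the drug libraries, against 13.4, 13.3 and 18.6 CPM in the DMSO libraries, and fell by 0.75 log2 (SE 0.16, adjusted p = 0.00678), a call that ended without DMSO replicate 3 (-0.58, adjusted p = 0.0842). KLF6 fell by 0.39 log2 (SE 0.10, adjusted p = 0.0375), and this call ended without drug replicate 1 or 3 or DMSO replicate 1, 2 or 3 (-0.41 to -0.30, adjusted p = 0.0812 to 0.302), and also with limma-voom and at a minimum of 5 CPM. Without single libraries the count of fallen members was 6 to 8. JUN had 2.91, 2.2 and 4.11 CPM in the drug libraries, against 3.2, 6.64 and 11 CPM in the DMSO libraries, which overlapped, and -1.14 log2 (SE 0.38, adjusted p = 0.197). EGR2 had a change of -2.77 log2 (SE 0.74) from at most 1.07 CPM. IER5, a gene of the same list, had a change of -0.03 log2 (SE 0.06) and overlapping libraries, and KLF4 was positive at 1.36 log2 (SE 0.88) from at most 0.517 CPM.

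The EGR1 window is shown because its 2 matches to the CArG box, the site of serum response factor, lie close together upstream of the start. The box was in 1.02% of all windows and in 2 of 18 windows of the immediate early genes. Among called members with a window, it was in 1 of 8, EGR1 itself. Capitals mark the matches, at bases -105 to -96 and -83 to -74, in the window chr5:138465229-138465528 of GRCh38.p14, plus strand.
EGR1: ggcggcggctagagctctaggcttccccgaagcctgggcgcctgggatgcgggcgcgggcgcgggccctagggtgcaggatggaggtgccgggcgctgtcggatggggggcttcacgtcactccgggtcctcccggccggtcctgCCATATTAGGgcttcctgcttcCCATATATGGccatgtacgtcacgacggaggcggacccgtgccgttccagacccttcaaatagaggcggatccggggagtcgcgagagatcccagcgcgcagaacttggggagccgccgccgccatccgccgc

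Some genes that feed back on ERK and on G proteins also fell. DUSP2, a nuclear phosphatase of ERK, had 31, 32.3 and 25.6 CPM in the drug libraries, against 45.3, 64.8 and 78.2 CPM in the DMSO libraries, and fell by 1.08 log2 (SE 0.15, adjusted p = 2.4e-05). DUSP5, a phosphatase specific to ERK, had 2.33, 1.68 and 2.42 CPM in the drug libraries, against 5.3, 8.45 and 6.8 CPM in the DMSO libraries, and fell by 1.65 log2 (SE 0.27, adjusted p = 0.000213). These 2 of 11 tested feedback genes fell and 0 rose, at a median of -0.178. DUSP6, the cytoplasmic ERK phosphatase, had at most 1.31 CPM in any of the 6 libraries and -1.10 log2 (SE 0.52, adjusted p = 0.467). RGS2, which shortens signalling by G alpha q, had 21.9, 17.7 and 17.9 CPM in the drug libraries, against 40.5, 44.8 and 44.4 CPM in the DMSO libraries. It fell by 1.17 log2 (SE 0.10, adjusted p = 8.63e-10), with the drug libraries far below the DMSO libraries. RGS1, which limits the pull of chemokines on B cells, had 4.2, 3.49 and 3.99 CPM in the drug libraries, against 8.6, 11.2 and 9.43 CPM in the DMSO libraries, and fell by 1.31 log2 (SE 0.18, adjusted p = 2.37e-05). Of 7 RGS genes tested, these 2 fell and 0 rose. RGS16 had a change of 0.06 log2 (SE 0.16) and RGS19 0.51 log2 (SE 0.15, adjusted p = 0.104). The 4 falls held without each single library. TRIB1, a pseudokinase that steers protein degradation, had 5.25, 7.1 and 5.08 CPM in the drug libraries, against 13.4, 15.8 and 21.2 CPM in the DMSO libraries, and fell by 1.53 log2 (SE 0.20, adjusted p = 6.47e-06).

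**Figure D3:**
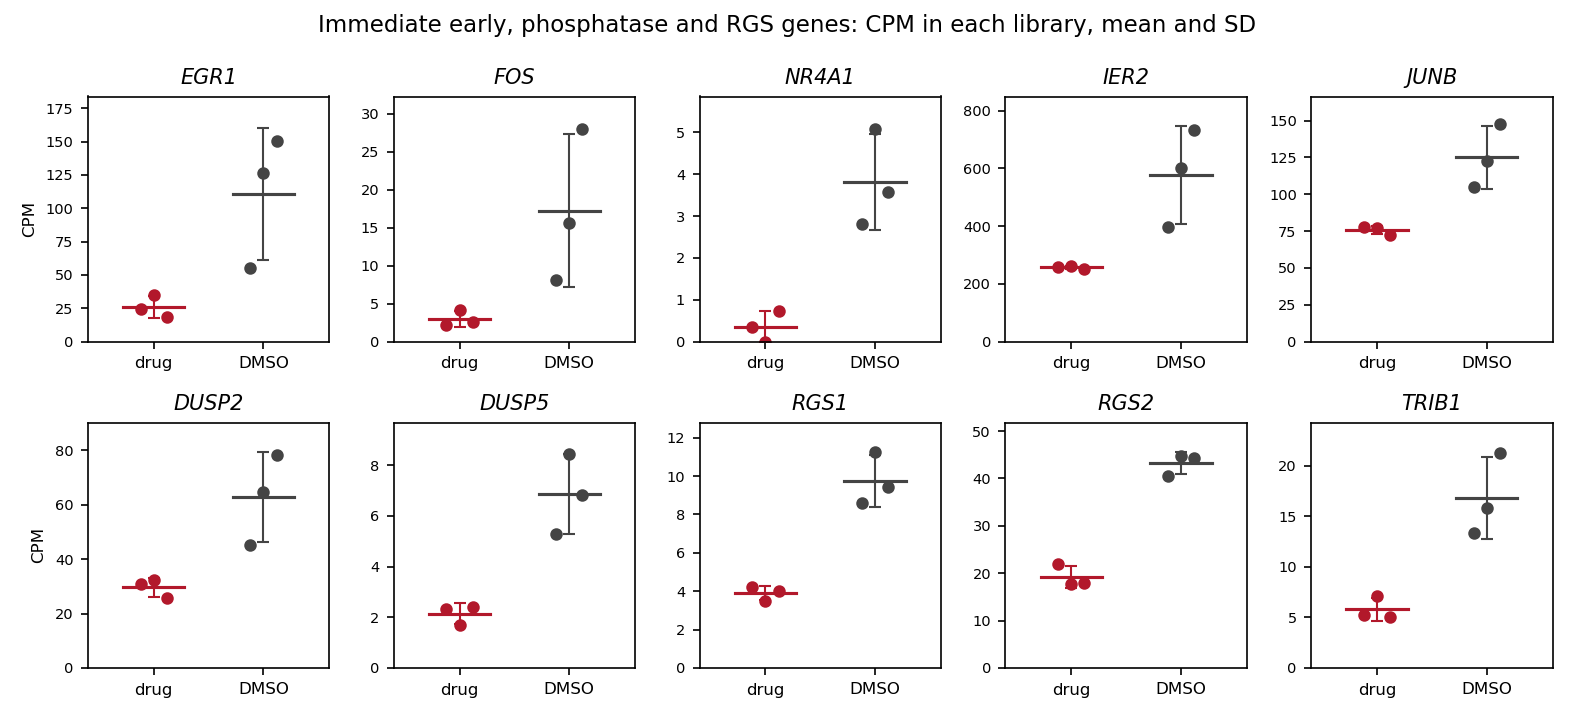
Levels of 10 immediate early, phosphatase, RGS and TRIB1 transcripts in control shRNA cells. Each point is 1 library in CPM, drug on the left in red and DMSO on the right in grey, with the mean and SD of 3. No drug library reached a DMSO library in any of the 10 genes, while the DMSO libraries of EGR1, FOS and IER2 differed widely.

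Among genes of the B cell receptor pathway itself, 1 passed the test. BTK, the target of ibrutinib, had 42.2, 43.5 and 44.5 CPM in the drug libraries, against 49.1, 48.1 and 45.5 CPM in the DMSO libraries, and a change of -0.13 log2 (SE 0.08, adjusted p = 0.63) with a 95% interval of -0.29 to 0.02 log2. Of 22 signalling genes tested, 1 rose and 0 fell, at a median of 0.0361. The one was RASGRP3, an activator of RAS in B cells, with 9.91, 8.91 and 6.29 CPM in the drug libraries, against 3.5, 5.07 and 5.25 CPM in the DMSO libraries, a change of 0.87 log2 (SE 0.21, adjusted p = 0.0206), and its call ended without drug replicate 1 or 2 or DMSO replicate 1 (0.70 to 0.83, adjusted p = 0.109 to 0.229). The receptor chain gene CD79B had a change of 0.24 log2 (SE 0.08, adjusted p = 0.19) and passed without drug replicate 2 (0.34, adjusted p = 0.0129). MS4A1, which encodes CD20, had 234, 222 and 237 CPM in the drug libraries, against 192, 183 and 185 CPM in the DMSO libraries, and rose by 0.31 log2 (SE 0.05, adjusted p = 0.000679), the 1 of 12 tested B cell markers that passed. PAX5, the B cell identity factor, had a change of 0.19 log2 (SE 0.06, adjusted p = 0.209) with no overlap.

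Among NF-kB targets of the receptor, 2 of 17 tested rose and 0 fell, at a median of 0.0119, which was -0.0124 with library totals. The list held 26 genes, and CCL3, CCL4, CCL22, CD69, TRAF1, BCL2A1, LTA, TNF and EBI3 were not tested. The median does not cover these. PLEK, pleckstrin, a substrate of protein kinase C, had 30.7, 30.6 and 37.5 CPM in the drug libraries, against 22.3, 19.6 and 23.8 CPM in the DMSO libraries, and rose by 0.59 log2 (SE 0.10, adjusted p = 0.000644). TNFAIP3, the NF-kB inhibitor A20, had 29.5, 27 and 24.8 CPM in the drug libraries, against 21.5, 19.9 and 21 CPM in the DMSO libraries, and rose by 0.38 log2 (SE 0.10, adjusted p = 0.0375), a call that ended without drug replicate 1 or 2 or DMSO replicate 1, 2 or 3 (0.31 to 0.41, adjusted p = 0.0872 to 0.296). NFKBIA, the classic feedback inhibitor, had 384, 395 and 408 CPM in the drug libraries, against 406, 408 and 435 CPM in the DMSO libraries, which overlapped, a change of -0.07 log2 (SE 0.05, adjusted p = 0.708). CD40, a co-stimulatory receptor, had a change of 0.37 log2 (SE 0.12, adjusted p = 0.16). IL10, an inhibitory cytokine gene, had a change of -1.63 log2 (SE 0.45, adjusted p = 0.0726) from at most 3.22 CPM and passed without drug replicate 3 (-2.21, adjusted p = 0.0394) and with limma-voom (-1.67, adjusted p = 0.046). Of the homing receptors and integrins tested, 0 of 6 passed by edgeR, 0 by DESeq2 and 0 by limma-voom, and 2 had an unadjusted p under 0.05. Over all genes tested, 1.29% passed by edgeR and 10% had an unadjusted p under 0.05. CXCR4, the chemokine receptor of homing, passed in edgeR with library totals (-0.19, adjusted p = 0.0345).

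None of the BCL2 family genes that were tested passed at 3 µM venetoclax and 3 µM ibrutinib. Over all genes tested, 1.29% passed by edgeR and 10% had an unadjusted p under 0.05, so lists as short as these can hold no call at that share. Of 4 survival genes tested, 0 passed by edgeR, by DESeq2 and by limma-voom, and 2 (50%) had an unadjusted p under 0.05. The survival list held 6 genes, and its other members, BCL2L10 plus BCL2A1, were not tested. BCL2, the target of venetoclax, had 33.2, 30.6 and 31.3 CPM in the drug libraries, against 36.4, 38.4 and 37.2 CPM in the DMSO libraries. Its libraries did not overlap, but the change of -0.23 log2 (SE 0.09, adjusted p = 0.286) missed the threshold, with a 95% interval of -0.40 to -0.06 log2 that is not adjusted for multiple testing. MCL1, a survival relative that venetoclax does not target, had 401, 389 and 388 CPM in the drug libraries, against 376, 413 and 469 CPM in the DMSO libraries, a change of -0.09 log2 (SE 0.06, adjusted p = 0.69), with a 95% interval of -0.22 to 0.03 log2. BCL2L1, which encodes BCL-XL, had 18.5, 24.2 and 27.1 CPM in the drug libraries, against 23.2, 22.9 and 23.5 CPM in the DMSO libraries, and a 95% interval of -0.21 to 0.20 log2. BCL2L2 had a change of -1.19 log2 (SE 0.49) from at most 1.33 CPM. Of 9 death genes tested, 0 passed by edgeR, by DESeq2 and by limma-voom, and 2 (22.2%) had an unadjusted p under 0.05. This list held 11 genes. Its remaining members, BOK plus BCL2L11, went untested, so their response is not known here. BMF, a BH3-only gene, had a change of 0.45 log2 (SE 0.17, adjusted p = 0.314). BAK1, a pore-forming effector, had a change of -0.23 log2 (SE 0.11, adjusted p = 0.494), and BAX had a change of -0.07 log2 (SE 0.09). The p53 targets BBC3 (PUMA) and PMAIP1 (NOXA) had a change of 0.03 log2 (SE 0.09) and 0.01 log2 (SE 0.06). BID had a change of 0.11 log2 (SE 0.09), BAD 0.13 log2 (SE 0.13), BIK 0.09 log2 (SE 0.11) and HRK 0.01 log2 (SE 0.22). Of 16 caspase and inhibitor genes, 0 passed with any of the 3 tools, and 2 (12.5%) had an unadjusted p under 0.05.

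Lists of growth and of the p53 and FOXO programmes held few or no calls. Of 20 p53 targets tested, BTG2 fell and 0 rose. MDM2, the ubiquitin ligase of p53, had a change of -0.13 log2 (SE 0.06, adjusted p = 0.426), and CDKN1A, which encodes p21, had a change of 0.14 log2 (SE 0.09). Of 13 FOXO targets, INSR, the insulin receptor gene, rose by 0.26 log2 (SE 0.06, adjusted p = 0.0196) and 0 fell, and that call ended without drug replicate 1 or 2 or DMSO replicate 1 or 2 (0.22 to 0.26, adjusted p = 0.0654 to 0.19). TXNIP had a change of 0.17 log2 (SE 0.10) with overlapping libraries. MYC had 59.6, 48.7 and 46.2 CPM in the drug libraries, against 42.4, 37.7 and 51.2 CPM in the DMSO libraries, a change of 0.24 log2 (SE 0.11, adjusted p = 0.483), which overlapped. Of 27 MYC and ribosome biogenesis genes, 0 passed by edgeR, DESeq2 or limma-voom and 5 had an unadjusted p under 0.05. The same 3 tools called 0 of 27 genes of the G1/S phase and replication, where 1 had an unadjusted p under 0.05. They called 0 of 28 genes of the G2/M phase and mitosis, where 5 did, at a median of -0.0581. The shares over all genes tested were 1.29% past the threshold by edgeR and 10% at an unadjusted p under 0.05.

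Several other lists held no call. With edgeR, DESeq2 and limma-voom alike, 0 of 32 ribosomal proteins, 0 of 30 nuclear oxidative phosphorylation genes, 0 of 29 proteasome genes, 0 of 19 heat shock chaperones, 0 of 17 type I interferon genes, 0 of 13 HLA class II genes and 0 of 18 SWI/SNF subunits passed. Members with an unadjusted p under 0.05 numbered 0, 1, 3, 1, 0, 2 and 1 in that order, against 1266 of all 12602 genes tested. SMARCA4, the ATPase against which the study's other shRNA is directed, had 588, 599.5 and 642 CPM in the drug libraries, against 577, 599 and 555 CPM in the DMSO libraries, a change of 0.08 log2 (SE 0.05, adjusted p = 0.686). Among 24 glycolysis and hypoxia genes 1 rose and 1 fell, and 3 fell without drug replicate 3. PKM, pyruvate kinase, had 479.9, 488 and 469 CPM in the drug libraries, against 652, 591 and 551 CPM in the DMSO libraries, and fell by 0.32 log2 (SE 0.06, adjusted p = 0.00133). GAPDH had 57, 47 and 44 counts in the drug libraries, against 30, 25 and 27 counts in the DMSO libraries, far too few for this abundant transcript, so its row does not stand for the gene's level. It was higher by 0.96 log2 (SE 0.21, adjusted p = 0.0103), a call that ended without drug replicate 1 or DMSO replicate 1 (0.88 to 0.95, adjusted p = 0.0634 to 0.0922). In the autophagy and lysosome list 1 of 21 fell, the protease gene CTSB by 0.32 log2 (SE 0.07, adjusted p = 0.0115), with a call that ended without drug replicate 1 or DMSO replicate 1 or 3 (-0.32 to -0.30, adjusted p = 0.0506 to 0.0642). Of 16 NRF2 targets 1 rose, SLC7A11.

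**Figure D4:**
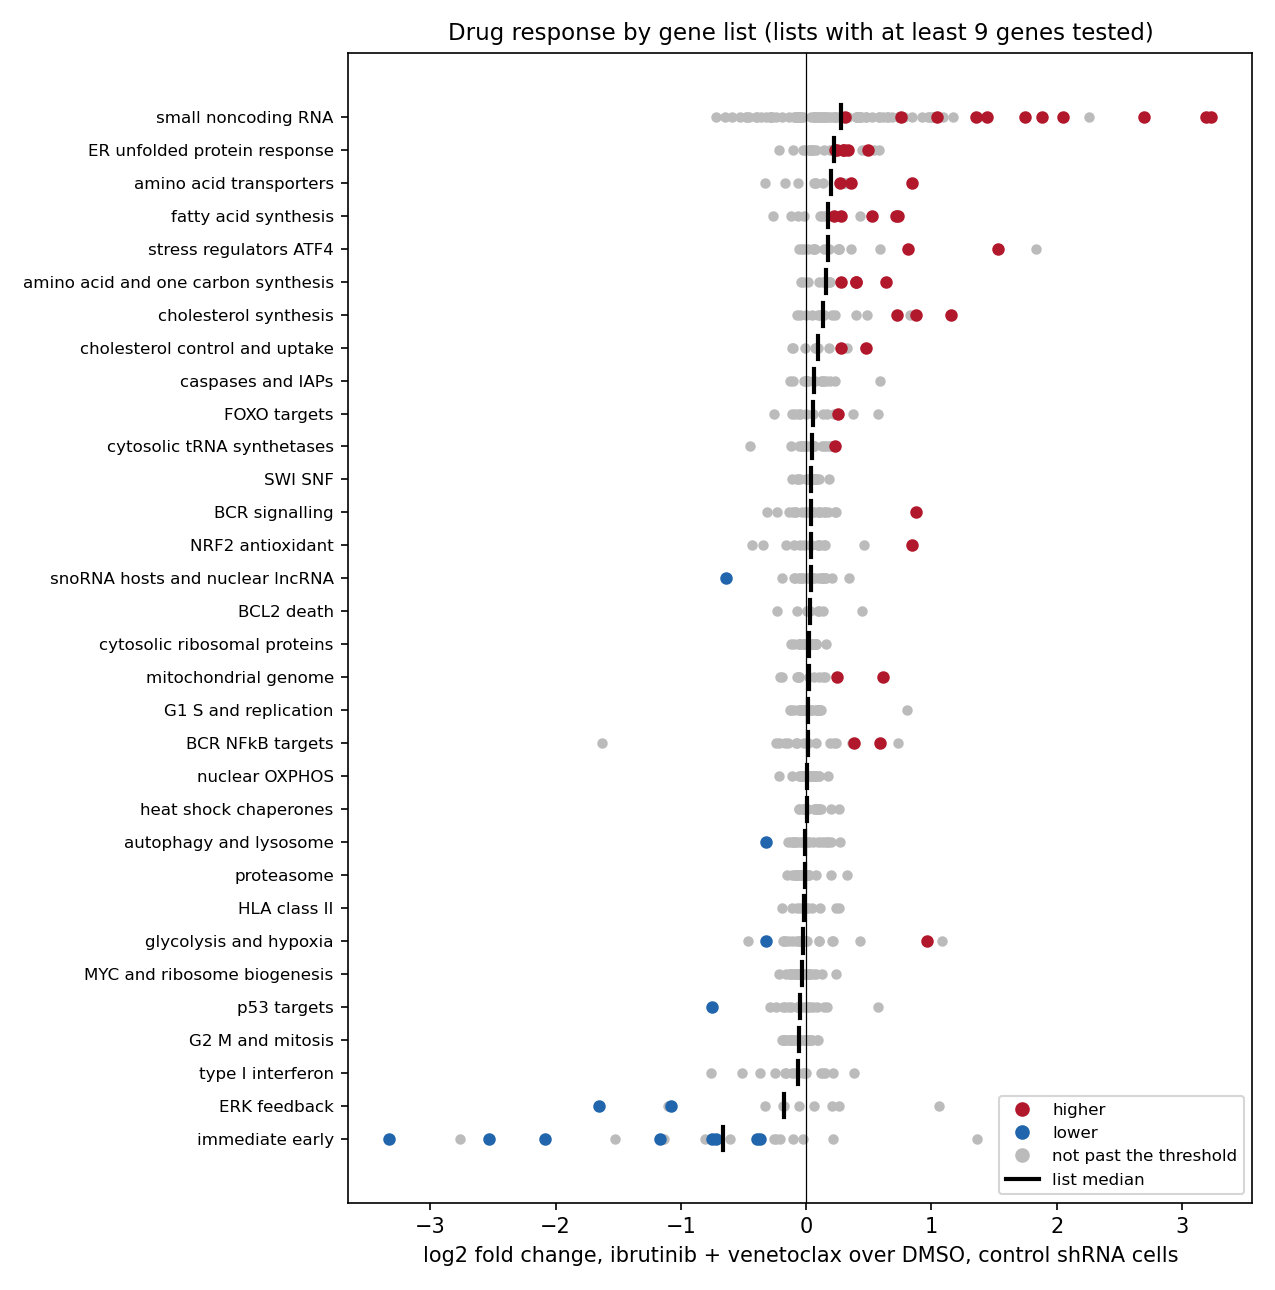
Log2 fold change, drug over DMSO, in control shRNA cells for every tested member of the gene lists with at least 9 genes tested. Red and blue points passed an adjusted p of 0.05 higher and lower, grey points did not, and the black bar is the list median. The immediate early list has the lowest median, at -0.661, and the small noncoding RNA list the highest, at 0.276.

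Several rows of small noncoding RNAs rose. RN7SK, the 7SK RNA that holds the elongation factor P-TEFb inactive, had 22.4, 22.6 and 29.5 CPM in the drug libraries, against 2.4, 2.05 and 3.46 CPM in the DMSO libraries, and rose by 3.23 log2 (SE 0.19, adjusted p = 1.87e-13). SCARNA2, a guide RNA of Cajal bodies, had 38.4, 34.4 and 38.8 CPM in the drug libraries, against 5.7, 4.71 and 6.8 CPM in the DMSO libraries, and rose by 2.69 log2 (SE 0.13, adjusted p = 1.05e-15). The drug libraries of both lay several times above every DMSO library. RNU4-2, a U4 spliceosomal RNA, had 6.76, 8.4 and 8.82 CPM in the drug libraries, against 1.7, 1.93 and 2.15 CPM in the DMSO libraries, and rose by 2.05 log2 (SE 0.24, adjusted p = 1.66e-06). SNORD46, a methylation guide, had 11.5, 11.5 and 12.9 CPM in the drug libraries, against 5.2, 2.78 and 5.13 CPM in the DMSO libraries, and rose by 1.44 log2 (SE 0.18, adjusted p = 4.63e-06). RPPH1, the RNA of RNase P, had 14.5, 16.3 and 16.9 CPM in the drug libraries, against 7.7, 7.37 and 8 CPM in the DMSO libraries, and rose by 1.04 log2 (SE 0.14, adjusted p = 1.68e-05). RNY1, a Y RNA, had 12.9, 11.2 and 10.6 CPM in the drug libraries, against 6.3, 5.56 and 4.42 CPM in the DMSO libraries, and rose by 1.09 log2 (SE 0.19, adjusted p = 0.000502), and RNU1-59P, an annotated copy of U1, by 0.76 log2 (SE 0.14, adjusted p = 0.00161). All 7 calls held without each single library.

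Of 99 small noncoding RNA rows tested, 11 rose and 0 fell, at a median of 0.276, with 71 positive. By annotated type, which was read from GENCODE release 29 by identifier, 4 of 28 snRNA rows and 3 of 34 snoRNA rows rose, and 12 of 12 rows annotated as scaRNA were positive with none past the threshold (SCARNA2 is not annotated as one there). Of the small RNA types together, mitochondrial tRNAs not counted, 11 of 126 rose and 0 fell, against 66 higher and 65 lower of 10640 protein-coding genes. Several of these RNAs have near-identical copies, among them RNU4-1 and RNU4-2, the U1 copies and RN7SK, and how the counting split their reads is not stated, so single rows are uncertain. Most of them also lack a poly(A) tail in the cell, while the kit primes on such tails. The share of counts from ribosomal RNA rows, which lack one too, was 10.6% ± 0.321 in the drug libraries and 9.15% ± 0.306 in the DMSO libraries (SD, n = 3 each). The row of RNA18S5 had 93428, 90450.4 and 88255 CPM in the drug libraries, against 71983, 77202 and 76524 CPM in the DMSO libraries, and rose by 0.27 log2 (SE 0.06, adjusted p = 0.00834), a call that ended without drug replicate 1 or DMSO replicate 1 (0.24 to 0.25, adjusted p = 0.068 to 0.0849). The part of RNA quality or library preparation in these rises was not tested.

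NEAT1, the long RNA on which nuclear paraspeckles are built, fell. It had 170.1, 195 and 184 CPM in the drug libraries, against 285, 299 and 271 CPM in the DMSO libraries, with the groups well apart, and fell by 0.64 log2 (SE 0.07, adjusted p = 1.21e-07). It was the 1 of 20 tested snoRNA hosts and nuclear long RNAs that passed, and MALAT1, its neighbour and another abundant nuclear RNA, had a change of -0.05 log2 (SE 0.06) with overlapping libraries. Of 13 genes encoded by mitochondrial DNA, 2 rose and 0 fell, at a median of 0.0217. MT-CO1, the catalytic subunit of cytochrome oxidase, had 1156, 1226 and 1245 CPM in the drug libraries, against 767, 782 and 820.1 CPM in the DMSO libraries, and rose by 0.61 log2 (SE 0.05, adjusted p = 2.08e-09), which held without each single library. MT-ND4L rose by 0.25 log2 (SE 0.06, adjusted p = 0.0223), and its call ended without drug replicate 1, 2 or 3 or DMSO replicate 1 or 2 (0.22 to 0.26, adjusted p = 0.0666 to 0.156). MT-ND6, the 1 protein encoded on the light strand, had a change of -0.20 log2 (SE 0.06, adjusted p = 0.0895) and passed with library totals (-0.23, adjusted p = 0.0339), so the list held values of both signs. The mitochondrial share of all counts was 7.90% ± 0.373 in the drug libraries and 7.92% ± 0.217 in the DMSO libraries (SD, n = 3 each).

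The remaining genes that the rule named for size had varied roles. FAM43A had 14.9, 13.7 and 17.6 CPM in the drug libraries, against 7.9, 8.45 and 8.95 CPM in the DMSO libraries, and rose by 0.87 log2 (SE 0.17, adjusted p = 0.00208), and GRM4, a metabotropic glutamate receptor gene, had 18.5, 19.8 and 19.9 CPM in the drug libraries, against 11.8, 10.9 and 11.1 CPM in the DMSO libraries, and rose by 0.78 log2 (SE 0.14, adjusted p = 0.00076). Among the falls, GPR183 encodes the oxysterol receptor that positions B cells in follicles. It had 16.1, 15.1 and 13.7 CPM in the drug libraries, against 24.8, 24.3 and 24.9 CPM in the DMSO libraries, and fell by 0.72 log2 (SE 0.12, adjusted p = 0.000189). TSC22D3, the glucocorticoid-induced leucine zipper GILZ, had 14.6, 12.1 and 12.1 CPM in the drug libraries, against 17.3, 24.6 and 28.3 CPM in the DMSO libraries, and fell by 0.84 log2 (SE 0.15, adjusted p = 0.00076). PDE3B, a phosphodiesterase of cyclic AMP, had 11.5, 11.5 and 12.8 CPM in the drug libraries, against 20.1, 20.05 and 21.8 CPM in the DMSO libraries, and fell by 0.79 log2 (SE 0.12, adjusted p = 5.32e-05). The dystrophin gene DMD had 6.41, 5.55 and 5.8 CPM in the drug libraries, against 12.1, 12.4 and 11.7 CPM in the DMSO libraries, and fell by 1.02 log2 (SE 0.16, adjusted p = 0.000141). SORBS2, an adaptor of the actin cytoskeleton, had 7.34, 5.81 and 8.1 CPM in the drug libraries, against 12.8, 14.4 and 15.8 CPM in the DMSO libraries, and fell by 1.002 log2 (SE 0.15, adjusted p = 6.46e-05). Groups that do not overlap were a condition of the rule for these 7 genes. The call of each held without each single library.

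Some further called genes lie outside the rule and were named after their values were seen. POU2F2, the B cell octamer factor OCT2, had 249, 247 and 246 CPM in the drug libraries, against 173, 178 and 165 CPM in the DMSO libraries, and rose by 0.52 log2 (SE 0.05, adjusted p = 5.23e-08). CD70, the ligand of CD27, had 335, 344 and 386 CPM in the drug libraries, against 532, 481 and 466 CPM in the DMSO libraries, and fell by 0.47 log2 (SE 0.08, adjusted p = 0.00043). TNFRSF21, death receptor 6, had 31.8, 32.5 and 31.8 CPM in the drug libraries, against 52.2, 47.2 and 47.1 CPM in the DMSO libraries, and fell by 0.61 log2 (SE 0.07, adjusted p = 2.67e-06). PSAP, the precursor of lysosomal saposins, had 715, 639 and 704 CPM in the drug libraries, against 832, 843 and 859 CPM in the DMSO libraries, and fell by 0.30 log2 (SE 0.05, adjusted p = 0.000424). MMAB, a cobalamin enzyme gene, had 122, 118 and 126 CPM in the drug libraries, against 87.5, 98.4 and 91 CPM in the DMSO libraries, and rose by 0.41 log2 (SE 0.06, adjusted p = 9.81e-05). These 5 calls held without each single library, and no drug library overlapped a DMSO library in any of them.

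The response was then set beside that of cells with the SMARCA4 shRNA, which shares no library with it. SMARCA4 itself had 167, 174 and 184 CPM in the drug libraries, against 177, 174 and 159 CPM in the DMSO libraries of the knockdown cells. All 6 lay below the 6 control libraries, given above. In knockdown cells 162 genes passed, 1.29% of those tested, with 93 higher (0.738%) and 69 lower (0.548%). In both constructs together 44 genes rose in both and 25 fell in both, which is 42.6% of the genes called in knockdown cells and 42.3% of those called in control cells. Of the 163 genes called in control cells, 151 had the same sign in knockdown cells. The difference between the 2 responses, tested as an interaction (knockdown response minus control response), passed for 3 genes, or 0.0238% of those tested: RNA18S5, RNA28S5 and NEAT1. An unadjusted interaction p under 0.05 was found for 674 of the 12602 genes. That is close to the share that such a cutoff passes when no gene differs. On simulated counts this interaction test found 70% of the genes whose responses differed by 1.5-fold, so differences of that size or smaller could be missed. The simulated differences were placed only in genes above a minimum CPM. In genes of lower level, larger differences could be missed too.

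No sterol, stress or immediate early gene had an interaction past the threshold. FDFT1 changed by 0.73 log2 (SE 0.07) in knockdown cells and by 0.72 log2 (SE 0.07) in control cells, with an interaction of 0.01 log2 (SE 0.10, adjusted p = 0.996). SCD had a change of 0.83 log2 (SE 0.07) in knockdown cells and 0.74 log2 (SE 0.07) in control cells. Of 19 cholesterol synthesis genes, 9 rose in knockdown cells and 3 in control cells, and none of the 19 differed past the threshold between them. HMGCS1 was among those that passed in knockdown cells, at 0.63 log2 (SE 0.10, adjusted p = 0.00016), where control cells had a change of 0.40 log2 (SE 0.11, adjusted p = 0.0923). CHAC1 had a change of 2.07 log2 (SE 0.14) in knockdown cells and 1.53 log2 (SE 0.14) in control cells, with an interaction of 0.53 log2 (SE 0.21, adjusted p = 0.914). EGR1 fell in both, with -2.24 log2 (SE 0.33) in knockdown cells and -2.08 log2 (SE 0.34) in control cells, and IER2 had -1.35 log2 (SE 0.19) in knockdown cells and -1.17 log2 (SE 0.19) in control cells. Of 20 immediate early genes 12 fell in knockdown cells and 8 in control cells. JUN had a change of -2.70 log2 (SE 0.40, adjusted p = 7.69e-05) in knockdown cells and -1.14 log2 (SE 0.38, adjusted p = 0.197) in control cells, and the difference did not pass (interaction -1.56 log2 (SE 0.60, adjusted p = 0.891)).

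RNA18S5 and RNA28S5 are themselves part of the ribosomal RNA share of counts. That share was 8.36% ± 1.01 in drug libraries and 10.5% ± 0.569 in DMSO libraries of knockdown cells, and 10.6% ± 0.321 in drug libraries and 9.15% ± 0.306 in DMSO libraries of control cells (SD, n = 3 each). RNA18S5 had a change of -0.29 log2 (SE 0.06, adjusted p = 0.00474) in knockdown cells and 0.27 log2 (SE 0.06, adjusted p = 0.00834) in control cells, an interaction of -0.55 log2 (SE 0.08, adjusted p = 0.00203). RNA28S5 had a change of -0.73 log2 (SE 0.11, adjusted p = 5.64e-05) in knockdown cells and 0.06 log2 (SE 0.11, adjusted p = 0.913) in control cells, an interaction of -0.79 log2 (SE 0.15, adjusted p = 0.048). NEAT1 in knockdown cells had 214, 215 and 178 CPM in the drug libraries, against 239, 209.8 and 222 CPM in the DMSO libraries. That is a change of -0.14 log2 (SE 0.07, adjusted p = 0.437) in knockdown cells and of -0.64 log2 (SE 0.07, adjusted p = 1.21e-07) in control cells, an interaction of 0.50 log2 (SE 0.09, adjusted p = 0.048). The NEAT1 interaction missed the threshold without any of 9 of the 12 single libraries (0.45 to 0.54, adjusted p = 0.0708 to 0.316). It held only without control DMSO replicate 3, knockdown drug replicate 3 or knockdown DMSO replicate 1. The NEAT1 interaction also missed the threshold at a minimum of 5 CPM (0.50, adjusted p = 0.108) and with ribosomal rows taken out (0.49, adjusted p = 0.147). The RNA28S5 interaction missed it without any of 8 (-0.82 to -0.62, adjusted p = 0.0695 to 0.191), and held only without control drug replicate 1, knockdown drug replicate 2, or knockdown DMSO replicate 1 or 2. It also missed the threshold with library totals (-0.73, adjusted p = 0.0565), at 5 CPM (-0.79, adjusted p = 0.108) and with DESeq2 (-0.79, adjusted p = 0.931). The RNA18S5 interaction held without each single library.

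The small RNA rows below were positive in both constructs, without a difference past the threshold. RN7SK had a change of 2.51 log2 (SE 0.15) in knockdown cells and 3.23 log2 (SE 0.19) in control cells (interaction adjusted p = 0.836). SCARNA2 had a change of 1.95 log2 (SE 0.12) in knockdown cells and 2.69 log2 (SE 0.13) in control cells (interaction adjusted p = 0.274), and SNORD46 had a change of 0.35 log2 (SE 0.16) in knockdown cells and 1.44 log2 (SE 0.18) in control cells (interaction adjusted p = 0.151). RPPH1 had a change of 0.32 log2 (SE 0.14) in knockdown cells and 1.04 log2 (SE 0.14) in control cells. The small noncoding list had a median of 0.164 in knockdown cells and 0.276 in control cells, so its median was positive in both. The part of RNA quality or library preparation in these values was not tested. MT-CO1 had a change of 0.26 log2 (SE 0.05) in knockdown cells and 0.61 log2 (SE 0.05) in control cells, with an interaction of -0.35 log2 (SE 0.07, adjusted p = 0.0975).

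**Figure D5:**
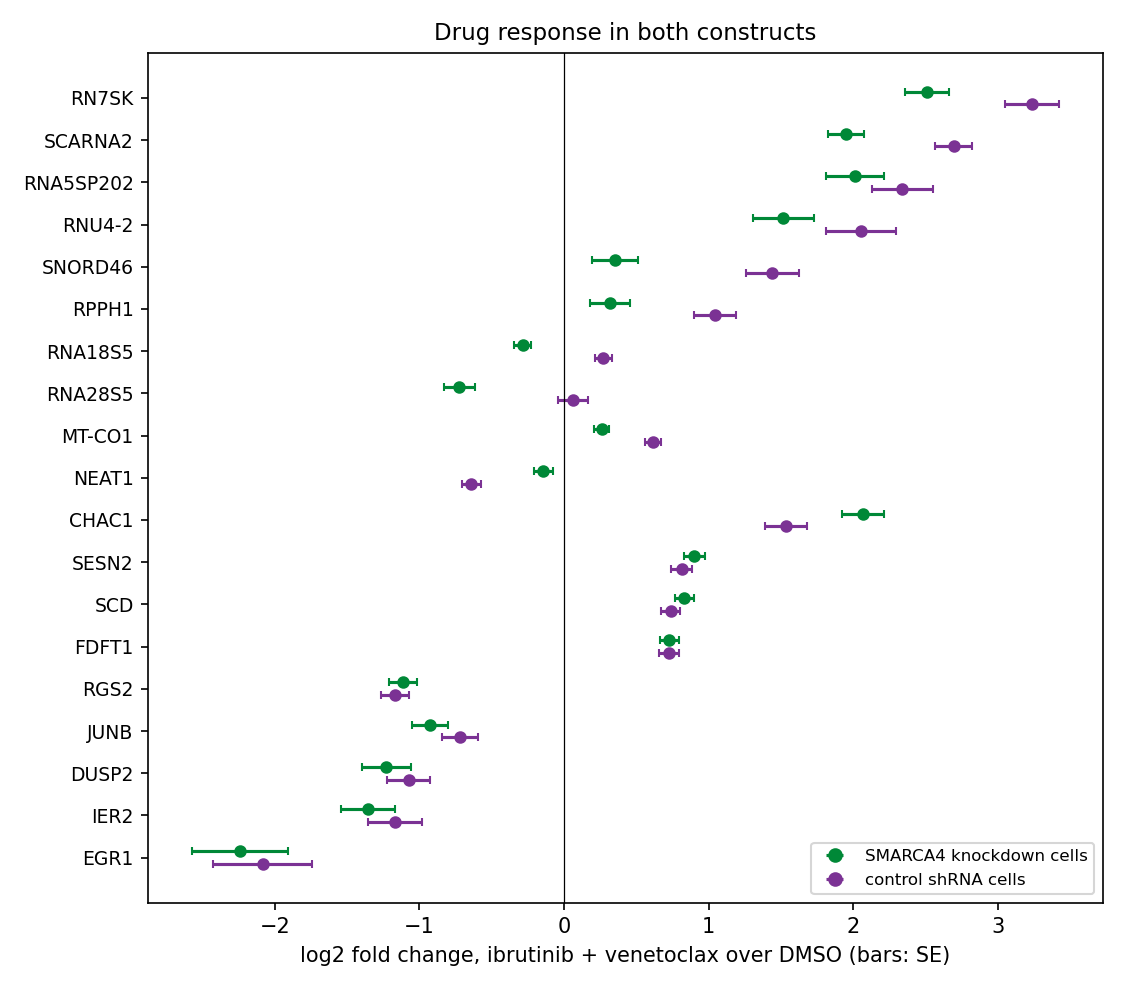
Log2 fold change, drug over DMSO, of 19 genes in SMARCA4 knockdown cells (green, upper point of each pair) and control shRNA cells (purple, lower point), with bars of 1 SE. RNA18S5, RNA28S5 and NEAT1 differ between constructs past an adjusted p of 0.05, and the other 16 genes have the same sign in both constructs.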

How the data were processed

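The authors deposited 1 table of raw gene counts, with no normalization, for 13820 genes in 12 libraries of 1 cell line. Per the labels' protocols, RNA was isolated with Qiagen RNeasy and libraries were made with Lexogen QuantSeq 3′ chemistry. Per the submitters' processing notes, HISAT2, HTSeq, bcl2fastq 2.17.1.14 and the hg19 build were used. The annotation, strand setting and remaining versions were not given in the sources used here. Columns were matched to samples by name, except 1 placed by elimination.

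edgeR's filterByExpr (minimum count 10, minimum total 15) removed 1218 genes and kept 12602. Counts were TMM-scaled, and a quasi-likelihood model with 1 coefficient for each of the 4 groups was fitted to all 12 libraries in edgeR 4.0.16 (R 4.3.3), so that the groups share 1 estimate of the spread. P-values are two-sided, with Benjamini-Hochberg adjustment over the 12602 genes and a threshold of 0.05. The approximate SE is the log2 fold change over the root of its F value, and gives the 95% intervals. The biological coefficient of variation was 5.69%. On simulated counts the test in control cells recovered 90% of 1.5-fold and 100% of 2-fold changes (50 genes each), with 7 false calls among 12389 genes. The changed genes were drawn only from those above a minimum CPM, so these shares do not cover genes of low level. Replicate numbers were not shown to pair libraries. Same-numbered control libraries correlated at -0.156, 0.114 and -0.019 in their deviations from the group means, and knockdown libraries at -0.0877, -0.125 and -0.293. Such values from few libraries cannot show that the design was unpaired.

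The comparison, gene lists and rule for named genes were chosen with earlier results of these data known, so list counts are descriptions. The rule took the 12 largest rises and 12 largest falls past the threshold with a symbol, groups that do not overlap and a log2 CPM averaging 3 or more, up to 4 members per list by smallest adjusted p, the BCL2 family, BTK, SMARCA4, MYC and the interaction calls. Other members of a list were named after their values were seen, to show its key enzymes or regulators. Values of some genes that the rule selects are not reported here. Alternatives were RLE scaling, library totals, no filter, 5 CPM in 3 libraries, DESeq2 1.42.0, limma 3.58.1 voom, a replicate block, the 6 libraries alone, ribosomal rows left out, a 2-fold minimum and each library left out. Promoter windows are RefSeq's for GRCh38.p14, a different build from the authors', and no count was mapped to them.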

Additional observations from a re-analysis of the deposited data

Results flagged for a closer look

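In 3 genes the drug response differed between the constructs by the interaction test, taken as the response in SMARCA4 knockdown cells minus that in control cells. RNA18S5 had an interaction of -0.5549 on the log2 scale. RNA28S5 had -0.7882 and NEAT1 had 0.4963. The 2 ribosomal RNA rows were lower with drug in knockdown cells, and RNA18S5 was higher with drug in control cells. NEAT1 in knockdown cells had 214, 215 and 178 CPM in the drug libraries, against 239, 209.8 and 222 CPM in the DMSO libraries. In control cells it had 170.1, 195 and 184 CPM in the drug libraries, against 285, 299 and 271 CPM in the DMSO libraries. The levels of the 3 knockdown DMSO libraries of NEAT1 thus lay between the drug and DMSO libraries of control cells. No explanation was tested for any of the 3.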

How the results depend on the processing

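The 163 calls in control cells became 163 with RLE scaling, 159 with library totals, 157 with no filter, 144 at 5 CPM, 140 with DESeq2, 150 with limma-voom, 162 without ribosomal rows, 151 in the 6 libraries alone and 45 at 2-fold. Leaving out 1 library gave 106 to 160, and 106 was the count without control_IbrVen replicate 1. In knockdown cells 162 became 100 to 164 (100 without SMARCA4kd_DMSO replicate 3, 102 without SMARCA4kd_IbrVen replicate 1). The 3 interaction calls became 1 at 5 CPM, 0 without ribosomal rows (676 at an unadjusted p under 0.05), 4 with DESeq2 and with limma-voom, and 1 to 3 with 1 library left out. A lone pair of libraries in a group is assumed to vary like the other groups. With the replicate number as a block the counts were 150 in control cells, 147 in knockdown cells and 2 for the interaction, and 118 in the 6 libraries alone, and the numbers are not shown to pair the libraries (1 of 3 control libraries correlated best with its own number). Of the 163 called genes 83 kept their call and direction in every alternative that gave them a value, the 2-fold minimum not counted. Among genes described, calls also ended with DESeq2 for CBS, SLC1A5, TNFAIP3 and CALR, with limma-voom for CBS, TNFAIP3, CALR and RNU4-1, with no filter for CBS and ACLY, and with the block for CBS, TARS, SDF2L1, ACLY and the NEAT1 interaction (0.49, adjusted p = 0.0628), while IL10 passed with the block (-1.67, adjusted p = 0.0475). Of 117 named genes that did not pass, 9 passed in at least 1 alternative and 11 changed sign in at least 1. With library totals PMAIP1 had -0.01528 and HRK -0.01399. At 5 CPM BCL2L1 had 0.0002472, and with limma-voom HRK had -0.01879. With 1 library left out these uncalled genes ranged as follows: BAD -0.009112 to 0.2347, BAX -0.1293 to 0.03304, BBC3 -0.0494 to 0.1119, BCL2L1 -0.1354 to 0.14, CCND1 -0.06933 to 0.06404, CD3G -0.01441 to 0.1594, CD4 -0.03032 to 0.5469, HRK -0.1537 to 0.2019, ITGB1 -0.01878 to 0.09075, PMAIP1 -0.03076 to 0.03396 and PRF1 -0.5075 to 0.3417. Depth limits genes of low level: NR4A1, DUSP6 and EGR2 rest on a few counts per library.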

Other observations

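Rows of histone genes, counted by symbols that begin with HIST and chosen after values were seen, numbered 46, of which 5 rose with drug in control cells and 0 fell. Their median log2 fold change was -0.132 in knockdown cells and 0.26 in control cells. HIST1H4B, a core histone H4 gene, had 4.31, 5.04 and 5.68 CPM in the drug libraries, against 0.2, 0.845 and 1.19 CPM in the DMSO libraries, and rose by 2.78 log2 (SE 0.38, adjusted p = 1.4e-05). HIST1H3A, a histone H3 gene, had 6.53, 3.75 and 5.2 CPM in the drug libraries, against 1.6, 1.09 and 1.43 CPM in the DMSO libraries, and rose by 1.89 log2 (SE 0.30, adjusted p = 0.000154). Its change was -0.02 log2 (SE 0.30) in knockdown cells and 1.89 log2 (SE 0.30) in control cells (interaction adjusted p = 0.151). HIST1H4B rose in knockdown cells too, by 1.504 log2 (SE 0.36, adjusted p = 0.0254), and in those cells 2 histone rows rose and 2 fell. Both are genes of replication-dependent histones, whose mRNAs end in a stem loop and not in a poly(A) tail. The lists of the G1/S phase and of replication held no call.

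Of 22 rows of mitochondrial tRNAs tested, 0 were positive in control cells. Their median was -0.516 in knockdown cells and -0.223 in control cells, with 6 lower in knockdown cells and 1 lower in control cells. The called row, MT-TM, the methionine tRNA, had 42.1, 44.6 and 71.3 CPM in the drug libraries, against 80.6, 65.3 and 81 CPM in the DMSO libraries, which overlapped, and its call ended without drug replicate 1 or 2 or DMSO replicate 1 or 3 (-0.48 to -0.39, adjusted p = 0.135 to 0.34), and also with DESeq2 and at a minimum of 5 CPM. This count was made after values were seen.

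The row of MIR663A had 8.28, 8.27 and 11.5 CPM in the drug libraries, against 1.3, 1.93 and 1.07 CPM in the DMSO libraries, and rose by 2.70 log2 (SE 0.25, adjusted p = 1.01e-08), and that of MIR3687 had 10, 22 and 13 counts in the drug libraries, against 1, 1 and 0 counts in the DMSO libraries. RNA5SP202, annotated as a 5S pseudogene, had 12.2, 12.1 and 15.6 CPM in the drug libraries, against 2.5, 2.29 and 3.1 CPM in the DMSO libraries, and rose by 2.34 log2 (SE 0.21, adjusted p = 5.75e-09). These 3 rows were picked for their size, and a row under a microRNA gene's name in a 3′ library does not measure the mature microRNA.

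Rows of 2 mitochondrial pseudogenes, picked after their values were seen, rose. MTATP6P1 had 167, 169.7 and 153 CPM in the drug libraries, against 112, 112 and 115 CPM in the DMSO libraries, and rose by 0.53 log2 (SE 0.07, adjusted p = 1.2e-05), and MTND2P28 had 48.1, 40.7 and 41.2 CPM in the drug libraries, against 26, 29 and 28.9 CPM in the DMSO libraries, and rose by 0.64 log2 (SE 0.09, adjusted p = 3.63e-05). Reads of such copies can be split with mitochondrial genes, so these rows are uncertain.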
